A study of Mus musculus with 12 samples.

Results

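The NR4A family is made up of 3 orphan nuclear receptors, and its genes Nr4a1, Nr4a2 and Nr4a3 were selected here by gene symbol from the 23183 symbols listed for each library. The libraries came from the brains of male C57BL/6 mice, which the study obtained at 7 weeks of age and kept for 1 week before exposure. The Con group was sham-irradiated, that is, placed on the irradiator platform at 0 Gy. The IR group received a single X-ray dose of 10 Gy to the whole brain, and tissue of both groups was taken 3 months later. The study also ran open-field and elevated plus maze tests 3 months after irradiation. Its text does not give the time between these tests and tissue collection. The cortex and the hippocampus were sequenced in both groups, with 3 libraries in each of the 4 sets and 12 in all. The question set by this design is whether levels differed between IR and Con in each region in the chronic phase after exposure.

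NR4A1 (also called Nur77), NR4A2 (Nurr1) and NR4A3 (Nor-1) are transcription factors that act without a known classical ligand, so that their activity follows largely from how much of each is made. They are immediate early genes: calcium and cyclic AMP signals from active synapses switch them on within a short time through the factor CREB, which binds the cyclic AMP response element (CRE) in their promoters. The proteins bind the NBRE element as monomers and related elements as dimers, and NR4A1 and NR4A2 also pair with the retinoid X receptors. In the hippocampus they are known for a part in long-term memory, in the midbrain NR4A2 is required for dopamine neurons, and in the cortex NR4A2 also marks neurons of the claustrum and of the deepest layer.

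The promoters are shown because the 3 genes share this way of being switched on. All 3 had a promoter window in RefSeq (build GRCm38.p6), each running from 250 bases before to 50 bases after an annotated start. The stretches below run 5′ to 3′ on the gene's own strand, and capitals mark CRE half-sites, the letters TGACG read on either strand. Nr4a1 (ENSMUSG00000023034) lies on the plus strand at chr15:101254269-101274795, and its 250 bases at chr15:101266596-101266845 precede the transcript start at 101266846, within an intron of a longer transcript. Nr4a2 (ENSMUSG00000026826) lies on the minus strand at chr2:57106830-57124003, and its 250 bases are chr2:57124004-57124253. Nr4a3 (ENSMUSG00000028341) lies on the plus strand at chr4:48045153-48086447, and only 30 bases at chr4:48045079-48045108 are shown.
Nr4a1: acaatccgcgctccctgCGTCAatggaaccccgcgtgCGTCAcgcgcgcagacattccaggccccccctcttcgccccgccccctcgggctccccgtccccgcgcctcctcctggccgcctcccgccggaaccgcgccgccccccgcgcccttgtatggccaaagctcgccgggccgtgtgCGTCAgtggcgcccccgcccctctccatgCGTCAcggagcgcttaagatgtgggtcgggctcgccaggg
Nr4a2: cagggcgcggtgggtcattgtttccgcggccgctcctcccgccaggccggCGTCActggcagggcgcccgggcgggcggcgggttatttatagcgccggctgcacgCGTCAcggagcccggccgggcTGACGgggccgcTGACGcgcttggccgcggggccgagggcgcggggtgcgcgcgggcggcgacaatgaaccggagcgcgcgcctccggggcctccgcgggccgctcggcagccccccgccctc
Nr4a3: tagcgtcccatgtCGTCAcatTGACGtctc

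Each of the 3 windows held 4 CRE half-sites. Of all 32851 promoter windows of the same length, 20.8% held at least 1 half-site and 0.231% held as many as 4. In Nr4a1 the shown half-sites began 233, 213, 69 and 40 bases before the transcript start, and in Nr4a2 200, 144, 123 and 111 bases before it. In Nr4a3 the shown pair began 61 and 53 bases before the start, with a further half-site 79 bases before it. The full palindrome TGACGTCA, present in 1.79% of windows, was in none of the 3 windows. The CArG box, bound by serum response factor and present in 1.63% of windows, was in none of the 3 either. A MEF2 site, present in 3.19% of windows, was in the Nr4a2 window. These matches describe the letters only.

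The values are FPKM, a count of sequenced fragments divided by transcript length and by library size, and can therefore be compared between genes. Read totals are not given with FPKM, so absolute depth is unknown, but the lowest values of each library put depth within a region between 1 and 1.12 times that of Con library 1. Nothing in the labels says which libraries came from the same mouse, and p-values measure the spread between these libraries. Bulk tissue cannot tell fewer cells of a type from less RNA per cell. The column names of the regions end in different suffixes whose meaning is not given, so that region and a possible difference in processing cannot be told apart. Regional labels held against markers: in the Con group all 7 markers of the cortical layers were lower in hippocampus, and 7 of 9 markers of hippocampal fields were higher, where 36.3% of all tested genes passed. Summed transcripts of 6 choroid plexus markers, a tissue that lines the ventricles beside the hippocampus, reached 440 FPKM in cortex IR 2, 1065 in hippocampus Con 2 and 1656 in hippocampus IR 1, against 4.74 to 66.1 in the other libraries.

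Cdkn1a, which encodes a cell cycle inhibitor and responds to DNA damage, separated the groups. Its level was 5.67, 6.33 and 6.03 FPKM in cortex Con and 14.8, 12.7 and 16.8 FPKM in cortex IR. On the scale of log2(FPKM + 1), used for all tests because it damps the noise of low values, the difference was 1.16 ± 0.09 (SE, n = 3 per group, limma adjusted p = 0.000948). In hippocampus Cdkn1a also rose, by 1.20 ± 0.08 on the same scale (limma adjusted p = 0.00175).

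Nr4a1 was the most abundant member in cortex and was higher in every IR library than in every Con library. Its level was 19.0, 45.5 and 49.3 FPKM in the 3 cortex Con libraries and 71.7, 78.6 and 89.8 FPKM in the 3 cortex IR libraries. The groups did not overlap, and Con 1 lay far below the other Con libraries. Group means were 38.0 ± 16.5 and 80.0 ± 9.14 FPKM (SD, n = 3), a ratio of 2.11. The difference in log2(FPKM + 1) was 1.16 ± 0.41 (SE, 95% confidence interval 0.08 to 2.24), and it did not pass the test over 14065 genes (limma adjusted p = 0.326). Among all genes tested in cortex, 0.725% passed at an adjusted p under 0.05, 14.1% had an unadjusted p under 0.05, and 11.2% were higher in every IR library than in every Con library. Nr4a1 was in the latter classes, as was Nr4a3, and not in the former. Counted from the most positive difference down, Nr4a1 ranked 6 of these 14065 genes. The call turned on Con 1: without it the difference was smaller, 0.74, yet passed (limma adjusted p = 0.0115). Other libraries moved the result the opposite way. Nr4a1 left the unadjusted limma class when Con 2, IR 1, IR 2 or IR 3 was left out, and stayed in it without Con 1 or Con 3. The differences in the fits where it left were 1.35, 1.24, 1.17 and 1.08, respectively.

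Nr4a3, the least abundant member in cortex, had the same ordering of libraries as Nr4a1. Its level was 3.07, 4.91 and 6.02 FPKM in cortex Con and 7.76, 8.73 and 10.9 FPKM in cortex IR, so again the groups did not overlap. Group means were 4.67 ± 1.49 and 9.12 ± 1.60 FPKM (SD, n = 3), a ratio of 1.96. In log2(FPKM + 1) the difference was 0.86 ± 0.19 (SE, 95% confidence interval 0.41 to 1.31, limma adjusted p = 0.113), which ranked 16 from the most positive down and missed the threshold. The call depended on the fit: with a single fit of all 12 libraries the same difference passed (adjusted p = 0.0372).

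Nr4a2 showed no such separation in cortex. Its level was 6.65, 16.5 and 15.2 FPKM in Con and 10.9, 7.11 and 18.8 FPKM in IR, with the lowest value in Con and the highest in IR. The difference in log2(FPKM + 1) was -0.06 ± 0.50 (SE, 95% confidence interval -1.38 to 1.26, limma adjusted p = 0.973), an interval wide enough to hold a change as large as that of Nr4a1 in either direction. Its sign turned when Con 2, Con 3 or IR 2 was left out.

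**Figure D1:**
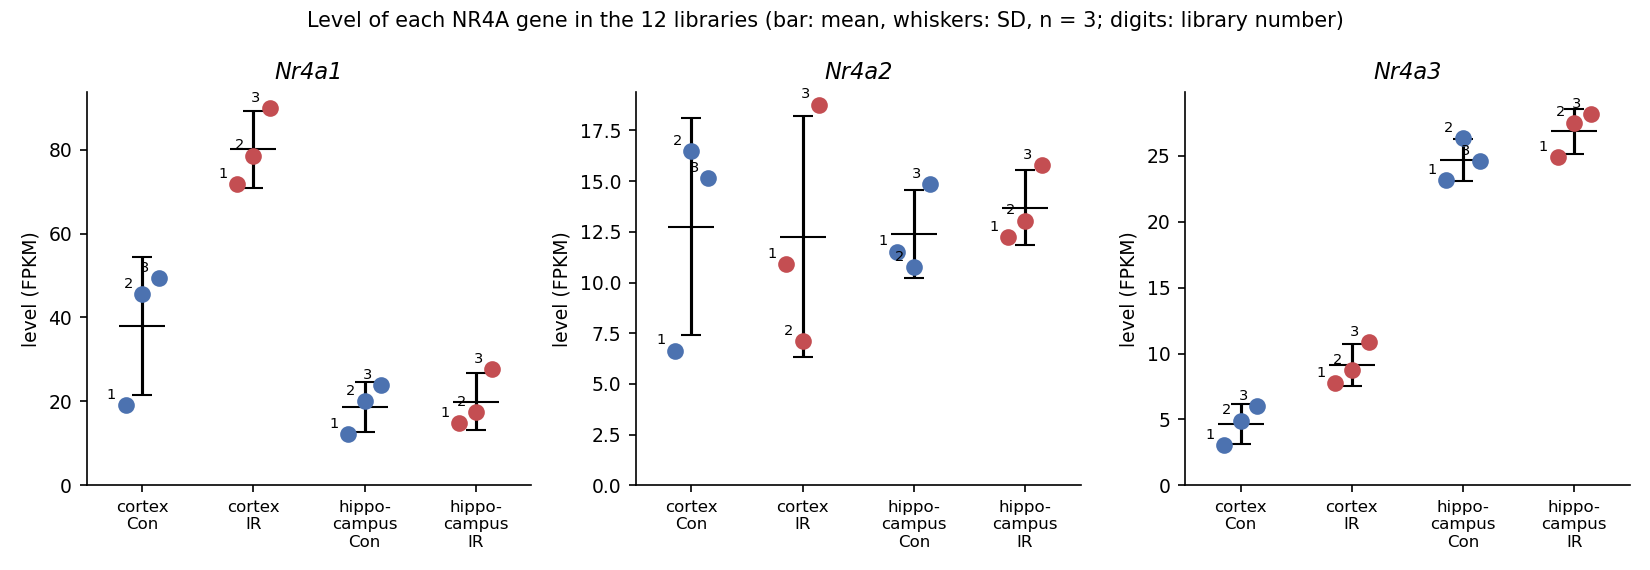
Level of each NR4A gene in FPKM (vertical axes, each starting at 0) for the 4 groups, with a point per library, a bar for the mean and whiskers for the SD (n = 3); digits give the library number. In cortex the IR points of Nr4a1 and Nr4a3 lie above all Con points, those of Nr4a2 are mixed, and in hippocampus the groups overlap for all 3 genes.

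In hippocampus the IR and Con libraries overlapped for all 3 members. Nr4a1 was at 12.2, 20.1 and 23.9 FPKM in Con and at 14.8, 17.5 and 27.6 FPKM in IR. The difference in log2(FPKM + 1) was 0.09 ± 0.29 (SE, 95% confidence interval -0.60 to 0.78, limma adjusted p = 0.904), and its sign turned when Con 1 or IR 3 was left out. Nr4a2 was at 11.5, 10.8 and 14.9 FPKM in Con and at 12.2, 13.0 and 15.8 FPKM in IR, a difference of 0.14 ± 0.13 (SE, interval -0.16 to 0.44, limma adjusted p = 0.631).

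Nr4a3 was the steadiest member in hippocampus. Its level was 23.2, 26.4 and 24.6 FPKM in Con and 24.9, 27.5 and 28.1 FPKM in IR, and the difference in log2(FPKM + 1) was 0.12 ± 0.07 (SE, 95% confidence interval -0.06 to 0.29, limma adjusted p = 0.491). Of 14043 genes tested in hippocampus, 0.0285% passed at an adjusted p under 0.05, 13.9% had an unadjusted p under 0.05 and 10.5% were higher in every IR library than in every Con library; no member was in any of these classes.

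The difference between the regional responses was tested directly, as the hippocampal minus the cortical change. For Nr4a3 it was -0.75 ± 0.23 in log2(FPKM + 1) (SE, limma adjusted p = 0.331), and for Nr4a1 -1.07 ± 0.54 (limma adjusted p = 0.520). For Nr4a2 it was 0.20 ± 0.51 (adjusted p = 0.917). None passed, so that a different response of the regions was not established for any member. Of the 14459 genes in this fit, 0.083% passed and 10.4% had an unadjusted p under 0.05, Nr4a3 among them.

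**Figure D2:**
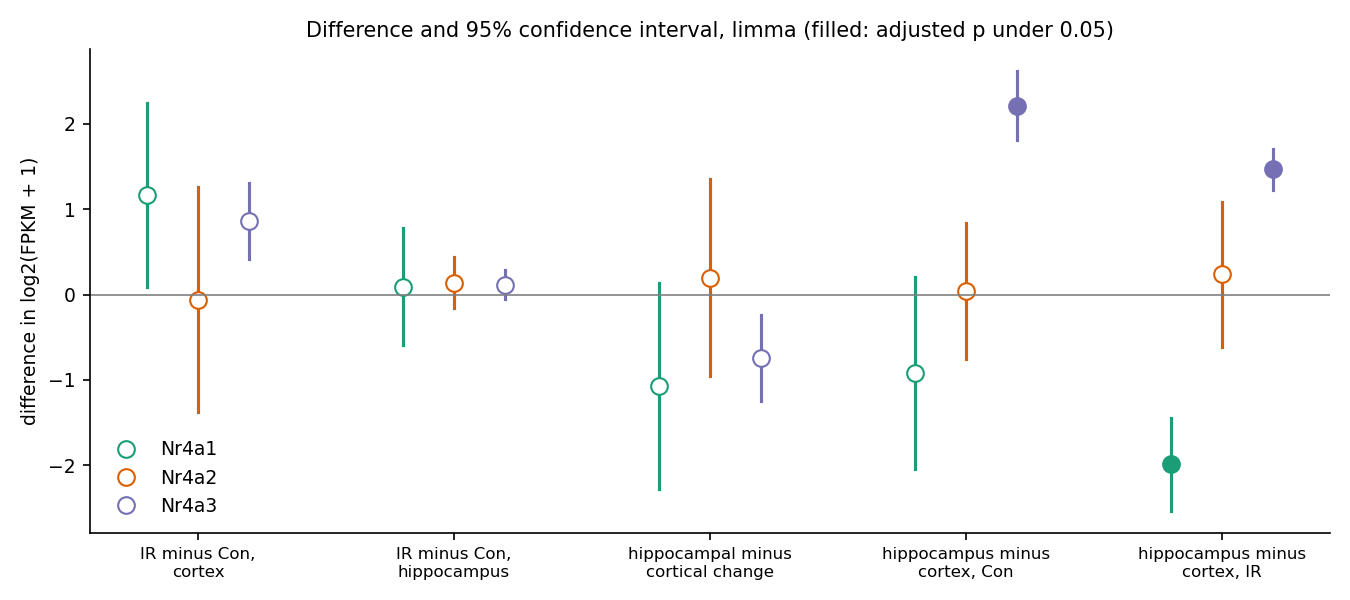
Differences in log2(FPKM + 1) (vertical axis) with 95% confidence intervals for each member in 5 comparisons (horizontal axis); filled points have a limma adjusted p under 0.05. The filled points are Nr4a3 between regions in both groups and Nr4a1 between regions in the IR group.

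The largest difference in the family was regional. In the Con group Nr4a3 was 5.30 times as high in hippocampus as in cortex by the ratio of mean FPKM (24.7 ± 1.60 against 4.67 ± 1.49, SD, n = 3). The difference in log2(FPKM + 1) was 2.22 ± 0.18 (SE, limma adjusted p = 2.76e-05), and every hippocampal library lay above every cortical one. Regional differences were common: 36.3% of 14169 genes passed at an adjusted p under 0.05 and 26.7% were higher in hippocampus in every library. Counted from the most positive difference down, Nr4a3 ranked 46 of these genes, and falls are not part of that count. In the IR group the regional difference of Nr4a3 was 1.47 ± 0.10 (limma adjusted p = 6.38e-06, ratio of means 2.94), again without overlap, where 46.7% of 14173 genes passed and 29.2% were higher in hippocampus in every library.

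Nr4a1 went the other way. In the Con group its mean was 2.03 times as high in cortex as in hippocampus, but cortex Con 1, at 19.0 FPKM, lay within the hippocampal range of 12.2 to 23.9 FPKM. The difference in log2(FPKM + 1), hippocampus minus cortex, was -0.92 ± 0.44 (SE, limma adjusted p = 0.171) and passed once cortex Con 1 was left out (-1.35, adjusted p = 0.00971). In the IR group, cortex was 4.01 times as high as hippocampus, the ranges of 71.7 to 89.8 and 14.8 to 27.6 FPKM did not meet, and the difference of -1.99 ± 0.22 passed (limma adjusted p = 0.000621). In that comparison 28.1% of genes were lower in hippocampus in every library. Both IR comparisons between regions were added with the values known.

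Nr4a2 did not pass between regions, with means of 12.8 ± 5.34 FPKM in cortex Con and 12.4 ± 2.18 FPKM in hippocampus Con (SD, n = 3). The regional difference was 0.04 ± 0.33 in log2(FPKM + 1) in Con (SE, 95% confidence interval -0.76 to 0.83, limma adjusted p = 0.943). In IR it was 0.24 ± 0.34 (interval -0.61 to 1.09, limma adjusted p = 0.608). Leaving out a library moved the Con difference between -0.34 (without cortex Con 1) and 0.26 (without cortex Con 2). In IR it became a call without cortex IR 3 (0.57, limma adjusted p = 0.0375) and was -0.070 without cortex IR 2.

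The makeup of the family differed between regions. Nr4a1 made up 66.2 to 83.2% of summed NR4A FPKM in the 6 cortex libraries, and Nr4a3 7.33 to 10.7%. In the 6 hippocampus libraries Nr4a1 made up 26.0 to 38.6% and Nr4a3 38.8 to 49.4%. The ratio of Nr4a3 to Nr4a1 ran from 0.108 to 0.161 in cortex and from 1.02 to 1.90 in hippocampus.

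In cortex the sum of the family was 28.8, 66.9 and 70.5 FPKM in Con and 90.4, 94.4 and 120 FPKM in IR, with means of 55.4 ± 23.1 and 101 ± 15.8 FPKM (SD, n = 3). Within it the share of Nr4a2 was 23.1, 24.6 and 21.5% in Con and 12.1, 7.53 and 15.7% in IR. These groups did not overlap, while the share of Nr4a3 averaged 8.85% in Con and 8.98% in IR. An exact two-sided permutation test of 3 libraries against 3 cannot give less than p = 0.1, which both the cortical sum and the Nr4a2 share reached. The share is not separate from the Nr4a1 level in its denominator: mean Nr4a2 was 12.8 FPKM in cortex Con and 12.3 FPKM in cortex IR, while mean Nr4a1 was 38.0 and 80.0 FPKM. In hippocampus the share of Nr4a2 averaged 22.3% in Con and 22.7% in IR (exact permutation p = 0.9).

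**Figure D3:**
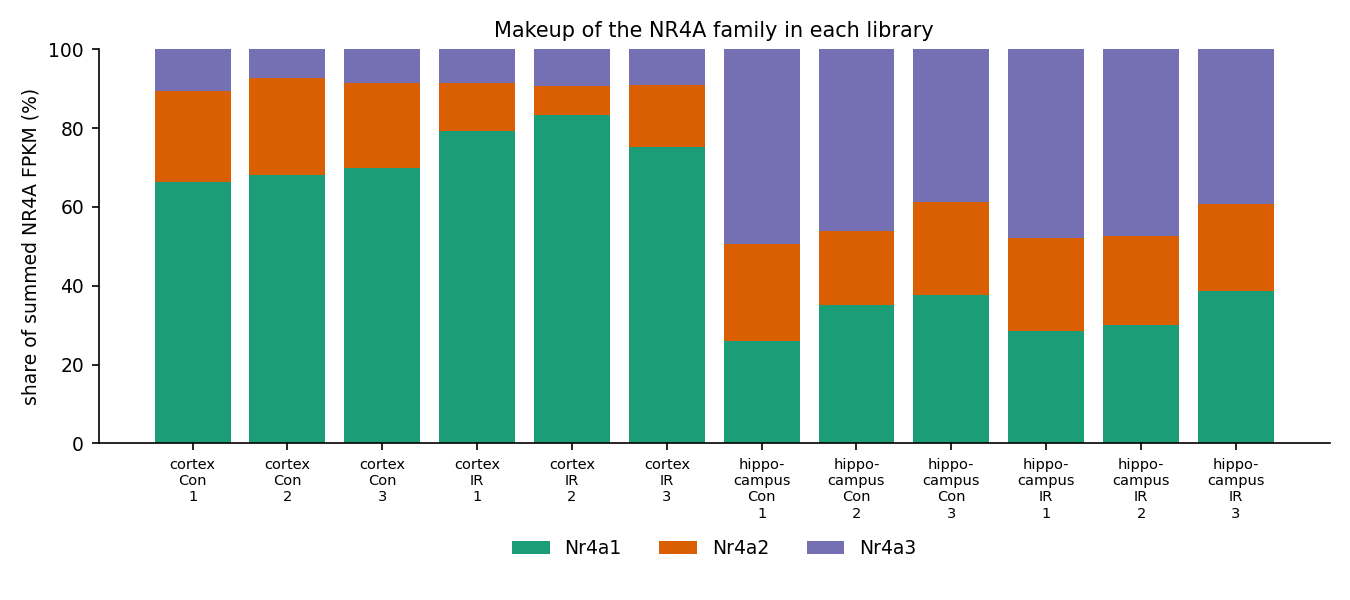
Share of each member in the summed NR4A FPKM (vertical axis, percent) in each of the 12 libraries (horizontal axis). Nr4a1 takes 66.2 to 83.2% in cortex, whereas Nr4a3 takes the largest share, 38.8 to 49.4%, in every hippocampus library.

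Set in order of mean FPKM, the members ran Nr4a1, Nr4a2, Nr4a3 in cortex Con with no overlap between neighbours. In cortex IR the order was the same, but Nr4a2 (7.11 to 18.8 FPKM) and Nr4a3 (7.76 to 10.9 FPKM) overlapped. In hippocampus the order was Nr4a3, Nr4a1, Nr4a2 in both groups. There neighbours overlapped, and Nr4a3 lay above Nr4a2 in every library. Among 49 nuclear receptor genes, Nr4a1 ranked 4 by mean FPKM in cortex Con and 2 in cortex IR, after Thra, the thyroid hormone receptor alpha, which ranked 1 in all groups. Nr4a3 ranked 22 in cortex Con and 16 in cortex IR, against 5 in both hippocampal groups. Nr4a2 ranked 12 in both cortical groups and 13 in both hippocampal groups.

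Spread between libraries of a group was large for the members in cortex. The pooled within-group SD in log2(FPKM + 1) was 0.53 for Nr4a1, 0.65 for Nr4a2 and 0.33 for Nr4a3, against a median of 0.09 over all genes tested there. Of the tested genes 99.7%, 99.8% and 98.4%, respectively, had a smaller SD. In hippocampus Nr4a1 was still variable, with an SD of 0.46 that exceeded that of 98.8% of tested genes. Nr4a3 there had an SD of 0.09, under the median of 0.11.

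The other 46 nuclear receptor genes gave a reference for the members. In cortex 32 of them were expressed enough to be tested, and their IR minus Con differences in log2(FPKM + 1) ran from -0.59 to 0.32, a range that both Nr4a1 and Nr4a3 exceeded. None rose and 1 fell: Nr1d1 (REV-ERB alpha), a repressor of the circadian clock, decreased by 0.59 ± 0.08 (SE, limma adjusted p = 0.0124). That call was lost without IR 1 (adjusted p = 0.0521), without the filter on low values (0.268) and without trend or robust prior (0.0588). In cortex 0.725% of all tested genes passed. Of the 32, 18 differences were above 0, with a median of 0.00 against 0.00 over all tested genes. Ppard, a fatty acid sensor, had the highest difference among them, 0.32 (adjusted p = 0.0643). In hippocampus 33 were tested and none passed, with 1 higher and 1 lower at an unadjusted p under 0.05. Their differences ran from -0.27 for Nr1d2, the other REV-ERB receptor, to 0.24 for Nr1h3, the oxysterol receptor LXR alpha. The retinoid X receptors Rxra, Rxrb and Rxrg, partners of NR4A1 and NR4A2, did not pass in either region. The largest absolute differences among them were 0.14 for Rxra in hippocampus and -0.12 for Rxrg in cortex.

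**Figure D4:**
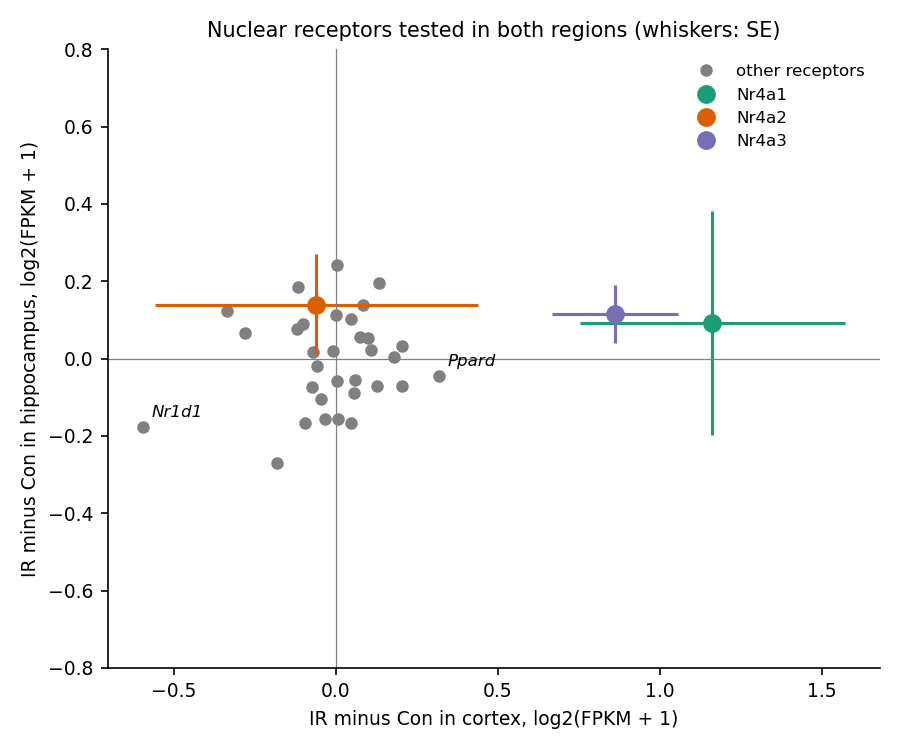
IR minus Con difference in log2(FPKM + 1) in cortex (horizontal axis) against hippocampus (vertical axis) for nuclear receptor genes tested in both regions, with SE whiskers for the members. Nr4a1 at 1.16 and Nr4a3 at 0.86 lie to the right of all other receptors, whose cortical values end at 0.32, while in hippocampus the members lie among the others.

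Between regions in Con, 4 of the 32 other receptors were higher and 14 lower in hippocampus, where 36.3% of all tested genes passed in either direction. The highest difference was that of Nr3c2, the mineralocorticoid receptor (2.70 ± 0.08 in log2(FPKM + 1), SE, limma adjusted p = 1.40e-07). Nr2f2, an orphan receptor, was higher by 1.26, Thra by 0.72 and Rara, a retinoic acid receptor, by 0.43. Rora, an orphan receptor of the ROR group, was lower (-1.34), as were Pparg (-1.23), which controls fat cell genes, and Rorb (-1.21), a marker of cortical neurons.

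Upstream signalling was examined with 24 genes for kinases, CREB and its partners, and MEF2 and serum response factors. In cortex 1 rose and none fell: Crem, a CREB relative that also yields the feedback repressor ICER, rose by 0.49 ± 0.08 in log2(FPKM + 1) (SE, limma adjusted p = 0.0321), a call that was lost without Con 1, Con 3, IR 1, IR 2 or IR 3, with the replicate block (adjusted p = 0.0796), without the filter on low values (0.259) and without trend or robust prior (0.0683). The median of the list was -0.01, and 0.725% of all tested genes passed in cortex. In hippocampus none of the 24 passed. At an unadjusted p under 0.05, 7 were higher and 0 lower, against 13.9% of all tested genes in either direction. The largest differences there were 0.34 for Elk1, a serum response factor partner (adjusted p = 0.221), and 0.27 for Hdac4, a histone deacetylase that binds MEF2 (adjusted p = 0.299). Between regions in Con, 10 were higher and 3 lower in hippocampus, where 36.3% of all tested genes passed in either direction. The lower ones were Mef2c, an activity-dependent factor (-2.45), Camk4, a kinase that phosphorylates CREB (-0.93), and Prkacb, a catalytic subunit of protein kinase A (-0.85). Among the higher ones were Camk2b (0.97), a synaptic kinase, Mef2a (0.80) and the CREB coactivator Crtc3 (0.59).

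Of 23 other activity-regulated early genes 7 rose in cortex IR and none fell, where 0.725% of all tested genes passed in either direction. A difference above 0 was seen in 22, and the median of the 23 was 0.63 in log2(FPKM + 1) against 0.00 over all tested genes. The transcription factor Egr3 rose by 0.97 ± 0.06 (SE, limma adjusted p = 0.000185). The synaptic scaffold gene Homer1 rose by 0.84, the AP-1 factor Fosb by 0.77, Klf4 by 0.63, the neurotrophin gene Bdnf by 0.59, Ier5 by 0.59 and Nptx2, a pentraxin of excitatory synapses, by 0.58. Larger differences did not pass: 1.66 ± 0.50 for Arc, which acts at synapses (limma adjusted p = 0.286), 1.32 for Egr2 and 1.28 for Fos. Leaving out a library reduced the 7 to 3 without IR 1, to 4 without IR 2 and to 4 without IR 3, and none passed without the filter on low values. Fosb and Klf4 lost the call whichever library was left out, while Egr3, Homer1 and Ier5 kept it each time.

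The summed level of these 23 genes was 402, 588 and 594 FPKM in cortex Con and 884, 859 and 1006 FPKM in cortex IR, so Con 1 was lowest here too. In hippocampus it was 347, 394 and 380 FPKM in Con and 350, 380 and 452 FPKM in IR. No gene of the list passed there, and 18 of 23 were above 0 with a median of 0.11. At an unadjusted p under 0.05, 2 were higher and 1 lower, against 13.9% of all tested genes in either direction. The hippocampal minus cortical change passed for 5 of the 23, all negative, with Egr3 the largest at -0.93 ± 0.12 (limma adjusted p = 0.0292). Of all 14459 genes in that fit 0.083% passed. With any single cortex library left out, 0 to 2 of the 23 passed, and without hippocampus Con 2, IR 1 or IR 2, 0 or 1.

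Between regions in Con, 9 of the 23 were lower in hippocampus and 2 higher, where 36.3% of all tested genes passed in either direction. Like Nr4a3, the higher ones were Jun, which encodes an AP-1 subunit (1.40 ± 0.09 in log2(FPKM + 1), SE, limma adjusted p = 3.36e-06), and Bdnf (1.14 ± 0.08, adjusted p = 8.33e-06). The lower ones included Fos (-1.72), the phosphatase gene Dusp1 (-1.59), Npas4 (-1.34), Ier5 (-1.30), Ier2 (-1.27) and Egr1 (-1.23), all with an adjusted p under 0.05.

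Closeness to each member was measured as the root mean square difference of log2(FPKM + 1) after subtracting each gene's mean, over 13646 genes. This is a description, and libraries share region and treatment. Over the 12 libraries the 5 genes closest to Nr4a1 were Egr1 (0.19), Arc (0.23), Egr2 (0.24), Trib1 (0.25) and Arl4d (0.36). The first 3 are activity-regulated genes, and Trib1 encodes a pseudokinase. For Nr4a3 the closest were Zfp189 (0.27), Rnf182 (0.27), Rasl11a (0.27), Lats2 (0.29) and Cebpd (0.30), and for Nr4a2 Cd44 (0.26), Wfs1 (0.27), Gadd45g (0.27), Glp2r (0.27) and Tenm3 (0.29). No gene was named for more than 1 member.

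Within the 6 cortex libraries Nr4a1 and Nr4a3 drew on shared neighbours. Closest to Nr4a1 were Egr1 (0.12), Fos (0.15), Egr2 (0.22), Fosl2 (0.22) and Trib1 (0.23), and closest to Nr4a3 were Trib1 (0.09), the kinase gene Sik1 (0.10), Fosl2 (0.11), the ERK phosphatase gene Dusp6 (0.14) and Gpr3 (0.14). Trib1 was at 3.47, 6.28 and 6.58 FPKM in Con and at 9.94, 10.1 and 11.6 FPKM in IR. Egr1 was at 49.9, 93.2 and 96.9 FPKM in Con and at 152, 161 and 193 FPKM in IR. Both were lowest in Con 1 and higher in each IR library than in each Con library. The difference between the 2 members themselves was 0.26 in cortex and 1.68 over all 12 libraries.

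Nr4a2 had other neighbours in cortex: Nts (0.15), which encodes neurotensin, Ppapdc1a (0.24), Btg2 (0.25), Necab2 (0.26) and Cpne7 (0.26). Nts was at 0.458, 3.40 and 2.50 FPKM in Con and at 1.75, 0.929 and 2.83 FPKM in IR. As for Nr4a2, its lower values were those of Con 1, IR 1 and IR 2. Of 10 markers of claustrum and deep layer neurons 9 were listed, and their summed level in cortex was 104, 114 and 103 FPKM in Con and 87.8, 87.8 and 105 FPKM in IR. None of the 9 was at 0 in any library, none passed the test between IR and Con, and 3 were lower in IR at an unadjusted p under 0.05. Their median difference in log2(FPKM + 1) was -0.22, with 2 of 9 above 0, and their part in the Nr4a2 values was not tested.

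**Figure D5:**
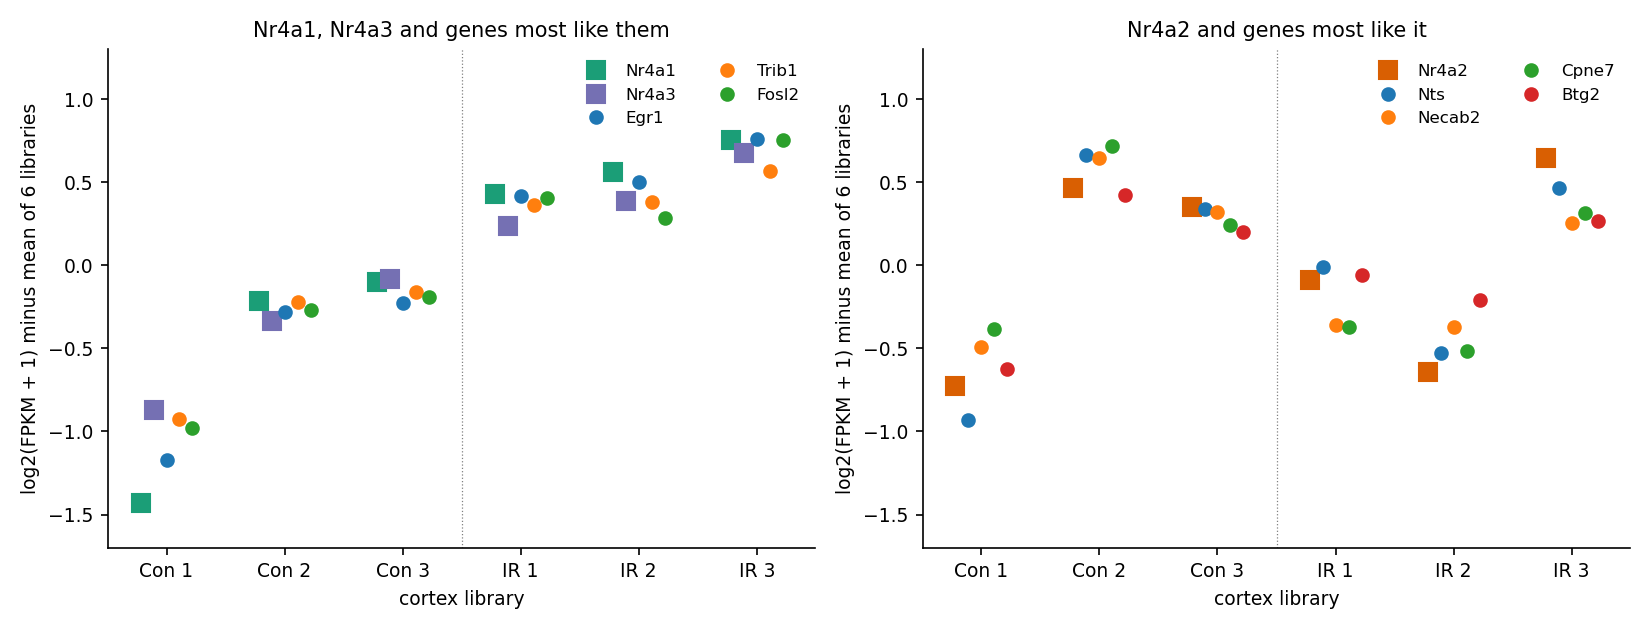
Level in each of the 6 cortex libraries (horizontal axis) as log2(FPKM + 1) minus the gene's mean over them (vertical axis), with squares for members and circles for genes close to them. Nr4a1, Nr4a3, Egr1, Trib1 and Fosl2 are lowest in Con 1 and higher in all IR than in all Con libraries, whereas Nr4a2, Nts, Necab2, Cpne7 and Btg2 are low in Con 1, IR 1 and IR 2.

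Of 10 genes linked to NR4A in work on hippocampal memory, most of them chaperones of the endoplasmic reticulum, 1 rose in cortex: Bdnf. Of all genes tested in cortex 0.725% passed. The early-response list also holds Bdnf and Fosl2. The Bdnf call was lost without IR 1 (limma adjusted p = 0.0611) and without the filter on low values (adjusted p = 0.133). All 10 had a difference above 0 and an unadjusted p under 0.05, against 14.1% of all tested genes at that level in either direction. The list was chosen with earlier results of these data known, and the study had reported Hspa5, Pdia4 and Sdf2l1 among its changed genes. The comparison is therefore not a test of the list. Summed levels in cortex were 291, 319 and 312 FPKM in Con and 485, 370 and 396 FPKM in IR, highest in IR 1. The median difference of the 10 genes was 0.49 in log2(FPKM + 1) against 0.00 over all tested genes. Fosl2, an AP-1 factor that is also a neighbour of both Nr4a1 and Nr4a3, had the largest, 0.96 ± 0.22 (SE, limma adjusted p = 0.135), followed by the co-chaperone gene Sdf2l1 at 0.72 (adjusted p = 0.203). In hippocampus none of the 10 passed, 8 were above 0 and the median was 0.34. At an unadjusted p under 0.05, 3 were higher, against 13.9% of all tested genes in either direction. Summed levels there were 374, 362 and 298 FPKM in Con and 523, 361 and 386 FPKM in IR. The highest, IR 1, was also a library with choroid plexus transcripts. The largest differences in hippocampus were those of Hspa5, the chaperone BiP (0.55, adjusted p = 0.300), and Xbp1, a factor of the unfolded protein response (0.51, adjusted p = 0.275). Hspa5 there ran from 72.5 to 86.2 FPKM in Con and from 94.8 to 166 FPKM in IR. Xbp1 ran from 20.4 to 22.6 FPKM in Con and from 26.2 to 41.6 FPKM in IR.

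Of 6 genes that NR4A2 drives in dopamine neurons, 4 were tested in cortex and 3 in hippocampus, and none passed between IR and Con, with 0 at an unadjusted p under 0.05. The largest differences in cortex were 0.16 for Ddc, which completes dopamine synthesis, and 0.16 for Slc18a2, the vesicular monoamine transporter. In hippocampus they were -0.15 for Ddc and -0.10 for Aldh1a1, an aldehyde dehydrogenase. Between regions in Con, Aldh1a1 (0.61, limma adjusted p = 0.00365) and Slc18a2 (0.38, adjusted p = 0.0229) were higher in hippocampus, while Nr4a2 was not.

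Markers of other cell types were summed in each library. Summed microglial markers were 160 to 172 FPKM in cortex Con and 128 to 165 in cortex IR, with 1 of 8 above 0, 3 lower at an unadjusted p under 0.05 and none passing. Summed neuronal markers were 2528 to 2873 and 2601 to 2809 FPKM, and summed striatal markers 98.4 to 104 and 106 to 113 FPKM. The striatal sums did not overlap, with 2 of 9 markers higher at an unadjusted p under 0.05, and no marker of either list passed. Endothelial sums, 73.7 to 87.7 FPKM in cortex Con and 90.6 to 104 in cortex IR, did not overlap either, with 3 of 6 markers higher at an unadjusted p under 0.05. The same held for oligodendrocyte sums, 1050 to 1302 and 1306 to 1583 FPKM, with 3 of 6 markers higher at that level. None of these markers passed after adjustment. Of all genes tested in cortex, 14.1% had an unadjusted p under 0.05 in either direction. A share of 11.2% was higher in every IR library than in every Con library. In hippocampus microglial sums were 156 to 186 FPKM in Con and 124 to 140 in IR. Of the 8 markers 0 were above 0, 5 were lower at an unadjusted p under 0.05 and 1 fell after adjustment. Their median difference in log2(FPKM + 1) was -0.32. Astrocyte sums there were 391 to 483 FPKM in Con and 374 to 411 in IR, with 3 of 5 markers lower at an unadjusted p under 0.05 and none passing. Of the hippocampal oligodendrocyte markers 2 of 6 were lower at that level, and endothelial sums did not overlap (64.2 to 71.7 FPKM in Con, 78.2 to 81.5 in IR), with 1 of 6 markers higher at that level and none of either list passing. Of all genes tested in hippocampus, 0.0285% passed and 13.9% had an unadjusted p under 0.05 in either direction. A share of 10.5% was higher in every IR library than in every Con library. In cortex Nr4a1 and Nr4a3 were higher in IR than in Con with and without IR 2, the cortex library with choroid plexus transcripts: without it the differences were 1.17 and 0.88. Neither passed without IR 2 (limma adjusted p = 0.535 and 0.248), and the unadjusted p of Nr4a1 rose to 0.0987. The part of these cell types in the NR4A values was not tested.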

How the data were processed

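RNA from cortex and hippocampus was sequenced as paired ends. The labels name Trizol for extraction and the study's methods an RNeasy kit, which was not settled; poly(A) selection is named in the methods, while the labels give the molecule as total RNA. Per the labels and methods the authors trimmed reads, mapped them to mm10 with TopHat and estimated FPKM with Cufflinks, with a geometric normalization in edgeR; the deposited FPKM values were used as they stand. Depth of each library limits the precision of low values. Testing required 0.5 FPKM or more in 3 or more libraries of a fit (for the interaction, of a region) and was done on log2(FPKM + 1) with limma 3.58.1 in R 4.3.3 (trend, robust prior, two-sided), with Benjamini-Hochberg adjustment over all genes tested and a threshold of 0.05. Fold values on this scale understate changes of low genes. The code was tested on simulated data. Named genes were the members, list genes with an adjusted p under 0.05 in a comparison (at most 6 by size, otherwise the 2 largest differences), the 5 genes closest to each member and Cdkn1a. Members and lists were chosen with earlier results of these data known. Alternatives covered the filter, pseudocount, scaling, prior, a replicate block, a single fit and leaving out libraries; fits without the libraries holding choroid plexus transcripts, and the IR comparison between regions, were added after seeing the data.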

Additional observations from a re-analysis of the deposited data

Results flagged for a closer look

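No NR4A gene met a rule for a closer look. In the lists beside them 5 genes did, because their change after irradiation differed between regions by the limma interaction test. The values are hippocampal minus cortical changes in log2(FPKM + 1), adjusted over 14459 genes, of which 0.083% passed. Egr3 differed by -0.93 ± 0.12 (SE, adjusted p = 0.0292), with changes of 0.97 in cortex and 0.05 in hippocampus. For Homer1 the difference was -0.81 ± 0.12 (adjusted p = 0.0294, 0.84 and 0.03). Nptx2 differed by -0.80 ± 0.12 (adjusted p = 0.0294, 0.58 and -0.22). For Bdnf the value was -0.74 ± 0.10 (adjusted p = 0.0292, 0.59 and -0.15). Ier5 differed by -0.73 ± 0.12 (adjusted p = 0.0359, 0.59 and -0.15). These calls were lost in most alternatives: of 20, the call held in 9 for Egr3, in 7 each for Homer1, Nptx2 and Bdnf and in 6 for Ier5, and none of the 5 passed with the replicate block. The direction held in all 20 for each of them.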

How the results depend on the processing

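The regional calls of Nr4a3 in Con and IR and of Nr4a1 in IR held under all alternatives run. Calls gained were Nr4a3 in cortex with the replicate block (0.86, adjusted p = 0.0286) and with all 12 libraries in a single fit (0.86), Nr4a1 in cortex without Con 1 (0.74, adjusted p = 0.0115), Nr4a1 between regions in Con with the replicate block (-0.92, adjusted p = 0.000194) and without cortex Con 1 (-1.35, adjusted p = 0.00971), and Nr4a2 between regions in IR without cortex IR 3 (0.57, adjusted p = 0.0375). Deviations of same-numbered libraries from their group means correlated at -0.38 to 0.18 over 14091 genes. With 3 libraries per group these values cannot decide whether same-numbered libraries belong together. Nr4a1 rose from library 1 to library 3 in all 4 groups, while Nr4a2 and Nr4a3 did not do so in every group. The replicate block is therefore given as an alternative only. It moved called genes in cortex from 102 to 71 and early-response calls there from 7 to 10. Called genes in hippocampus went from 4 to 1, interaction calls from 12 to 0 and early-response interaction calls from 5 to 0. In sensitivity to single libraries, differences in log2(FPKM + 1) ran as follows. In cortex Nr4a1 ran from 0.74 to 1.40, Nr4a2 from -0.44 to 0.25 (0.25 also without the choroid plexus library) and Nr4a3 from 0.64 to 1.03. In hippocampus Nr4a1 ran from -0.17 to 0.28 (0.34 without the choroid plexus libraries), Nr4a2 from 0.039 (without IR 3) to 0.27 (without Con 3) and Nr4a3 from 0.072 (without Con 1) to 0.17, with 0.21 for Nr4a3 without the choroid plexus libraries; none passed, and the 0.27 and 0.21 had an unadjusted p under 0.05. For the interaction Nr4a1 ran from -1.34 to -0.65 and Nr4a3 from -0.92 to -0.53 (the smaller sizes both without cortex Con 1), with no adjusted p under 0.135, and Nr4a2 from -0.11 to 0.58 (-0.12 without the choroid plexus libraries). Between regions Nr4a1 in Con ran from -1.35 to -0.66, Nr4a2 in Con from -0.34 to 0.26 and Nr4a2 in IR from -0.070 (without cortex IR 2) to 0.57. Called genes ran from 16 to 78 in cortex (102 with all libraries), from 0 to 880 in hippocampus (880 without Con 3) and from 0 to 487 for the interaction (487 without hippocampus Con 3). Early-response calls ran from 3 to 7 in cortex and from 0 to 5 for the interaction. Without the filter on low values, called genes were 26 in cortex and 12 in hippocampus, with 0 early-response calls in cortex and 0 for the interaction. At 1 FPKM in every library they were 2 in hippocampus and 19 for the interaction. Without trend and robust prior they were 22 in cortex and 0 for the interaction, with 4 and 0 early-response calls. A single fit gave 74 in hippocampus. Without the choroid plexus libraries they were 29 in cortex, 0 in hippocampus and 0 for the interaction, with 4 and 0 early-response calls. For the named list genes, 107 values lost the call, 128 kept it and none changed direction. The causes were not tested. Absolute depth is unknown and limits low genes.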

Other observations

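Promoters holding the NBRE, the element AAAGGTCA read on either strand that NR4A monomers bind, were compared with all promoters as a description. The element was in 1.51% of 32851 windows and in none of the 3 members' own windows. In cortex 127 tested genes had it: 49.6% of them had a higher mean in IR than in Con, against 50.6% of the 10646 tested genes with a window. Of the 127 genes 0.787% passed at an adjusted p under 0.05, against 0.761% of the 10646. In hippocampus 126 tested genes had the element, 54.0% were higher in IR against 47.0% of 10642, and none passed by limma, with 11.9% against 14.0% at an unadjusted p under 0.05.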
